A study of Mus musculus with 4 samples.

Results

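Chemokine ligands are small secreted proteins that call leukocytes into tissue, and transcripts of 10 of them were followed in whole mouse liver: Cxcl1, Cxcl2, Cxcl9, Cxcl10, Cxcl12, Cxcl13, Ccl2, Ccl5, Ccl6 and Ccl9. Every probe set, that is, every group of array probes read out as 1 value, was taken whose only gene symbol in the platform annotation was one of these names. This gave 18 of the 45101 probe sets on the array, 6 ligands having more than 1 probe set and 4 having 1. The brightest probe set by mean log2 signal stands for the ligand, and the others are given beside it. The 10 ligands are among 18193 genes that the array names.

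The study is about nonalcoholic fatty liver disease, and its labels give a single comparison, between reciprocal crosses of the inbred strains AJ and B6. The 2 AB6F1 males had AJ mothers and B6 fathers, and the 2 B6AF1 males had B6 mothers and AJ fathers. All 4 mice were first-generation hybrids, 9 months old, kept on chow in a specific-pathogen-free facility, and received no intervention. Both crosses have the same autosomal mix, and differ in which strain gave the X chromosome, the Y chromosome, the mitochondria and each imprinted allele. A slice of whole liver was used, without separating cells, so that for any transcript fewer cells of a type and less RNA per cell cannot be told apart. Differences are written as AB6F1 minus B6AF1.

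Chemokines are named by the spacing of their first cysteines, CXC or CC, and act through G protein-coupled receptors on leukocytes. Cxcl1 and Cxcl2 bind Cxcr2 and draw neutrophils, and hepatocytes, Kupffer cells and stromal cells make them under NF-kappaB control. Cxcl9 and Cxcl10 are induced by interferon gamma and draw Cxcr3-bearing T and NK cells. Cxcl12 and Cxcl13 are homeostatic ligands, the first of Cxcr4 on stem cells and leukocytes, the second of Cxcr5 on B cells. Ccl2 draws Ccr2-bearing monocytes, Ccl5 draws T cells, NK cells and monocytes, and Ccl6 and Ccl9 are mouse ligands of Ccr1 made largely by myeloid cells.

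Promoters are shown for the ligands with the largest log2 differences, Cxcl1 and Cxcl10, and for Cxcl2, the chromosomal neighbour of Cxcl1 that answers to the same receptor. Each line holds the 250 bases before the gene's start, on the gene's strand, from RefSeq on mouse build GRCm38.p6, at chr5:90890995-90891244 on the plus strand for Cxcl1, chr5:90903649-90903898 on the plus strand for Cxcl2 and chr5:92348890-92349139 on the minus strand for Cxcl10. Capitals mark matches to the NF-kappaB consensus on either strand and, in Cxcl10 alone, also a match to the core of the interferon-stimulated response element, GAAA repeated after any 2 bases.
Cxcl1: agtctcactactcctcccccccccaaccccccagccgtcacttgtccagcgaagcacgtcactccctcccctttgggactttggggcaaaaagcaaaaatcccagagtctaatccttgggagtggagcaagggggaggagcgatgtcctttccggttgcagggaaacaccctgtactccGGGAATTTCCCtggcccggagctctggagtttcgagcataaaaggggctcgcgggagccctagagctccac
Cxcl2: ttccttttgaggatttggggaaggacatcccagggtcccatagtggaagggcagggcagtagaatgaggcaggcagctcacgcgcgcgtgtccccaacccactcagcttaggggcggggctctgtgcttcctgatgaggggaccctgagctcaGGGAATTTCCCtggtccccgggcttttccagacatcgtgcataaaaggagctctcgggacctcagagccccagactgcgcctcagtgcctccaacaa
Cxcl10: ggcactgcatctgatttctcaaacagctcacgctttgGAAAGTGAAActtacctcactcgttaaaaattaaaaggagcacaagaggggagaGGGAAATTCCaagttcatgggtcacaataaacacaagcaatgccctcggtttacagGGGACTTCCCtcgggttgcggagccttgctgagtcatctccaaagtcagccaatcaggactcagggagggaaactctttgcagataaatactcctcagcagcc
Cxcl1 and Cxcl2 hold the same 11 bases, GGGAATTTCCC, where consensus matches on both strands overlap, from 71 to 61 bases before the start in Cxcl1 and from 97 to 87 in Cxcl2. This word, chosen for the search after the sequences were seen, stands in 14 of 32851 promoter windows of this length (0.0426%, both strands). Cxcl3, another chemokine ligand, is among these 14. Cxcl10 has 2 separate NF-kappaB matches, from 159 to 150 and from 103 to 94 bases before the start, and its response element match lies from 213 to 204 bases before it. Of the 8 ligands with a RefSeq window in the table, 4 hold the NF-kappaB consensus, against 3.9% of all windows, and the fourth is Ccl9 with a match from 35 to 26 bases before its start. The response element letters stand in 1 of the 8 and in 2.98% of all windows, and the STAT site, TTC and GAA around any 3 bases, in 0 of the 8 and in 7.02%. Ccl2 and Ccl5 have no entry. A match is only a run of letters, and no binding was measured. The lines are reference sequences, and the AJ and B6 alleles carried by these mice were not compared.

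Signals are MAS5 values in arbitrary units, and the 2% trimmed mean of every array is 500, which hides any shift common to all transcripts. Median signals were 78.0 and 75.9 in AB6F1 against 72.8 and 67.2 in B6AF1, so both AB6F1 arrays lay above both B6AF1 arrays. The main fit leaves this offset in, and median centring moved the median difference of all tested genes by -0.14 (log2). Between pairs of arrays, log2 signals correlated across probe sets at 0.895 to 0.901, with pairs of the same cross at 0.897 and 0.901. Animal identifiers in the labels do not interleave between the crosses, and handling and cross cannot be told apart. Liver identity was borne out by hepatocyte markers: all 13 that the array names were above the filter on every array, and Alb, albumin, had signals of 40787.9 and 38514.3 in AB6F1 against 40357.2 and 48624.7 in B6AF1. The number of arrays limits precision, since the smallest p that an exact permutation test of 2 against 2 can reach is 0.333. Tests therefore came from limma, which borrows variance across the 11749 genes whose mean log2 signal was at least that of the median probe set, 60.9 in signal units. Below that signal values are treated as dim, since no detection calls were used.

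Cxcl1 rose in AB6F1 liver, and it was the only one of the 10 ligands to pass limma with Benjamini-Hochberg adjustment over all tested genes. Of the 10, 9 reached the signal filter and Cxcl2 did not. Among these 9, 1 passed at an adjusted p under 0.05, where 0.213% of all tested genes passed (25 of 11749), and 3 had an unadjusted p under 0.05, where 9.72% of all genes did. Log2 differences were above 0 for 8 of the 9 ligands, also after quantile normalization or median centring, against 53.5% of all genes. Their median was 0.54, against 0.02 over all tested genes. Arrays of AB6F1 and B6AF1 were fully apart for 4 ligands, Cxcl1, Cxcl9, Cxcl10 and Ccl6, all with AB6F1 above, where 22.5% of all genes separated in that direction. No ligand separated the other way by its brightest probe set, where 18.7% of all genes did.

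**Figure D1:**
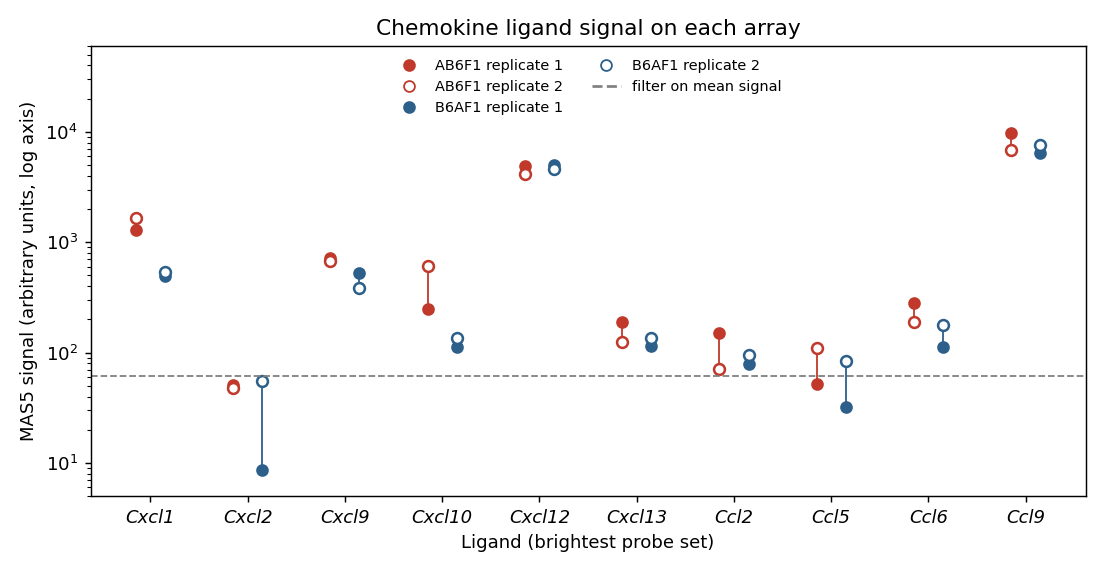
MAS5 signal (log axis) of the brightest probe set of each ligand on each array, with a line joining the 2 arrays of a cross and a dashed line at the filter signal of 60.9. Red and blue points are apart for Cxcl1, Cxcl9, Cxcl10 and Ccl6, and all 4 Cxcl2 arrays lie under the dashed line.

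**Figure D2:**
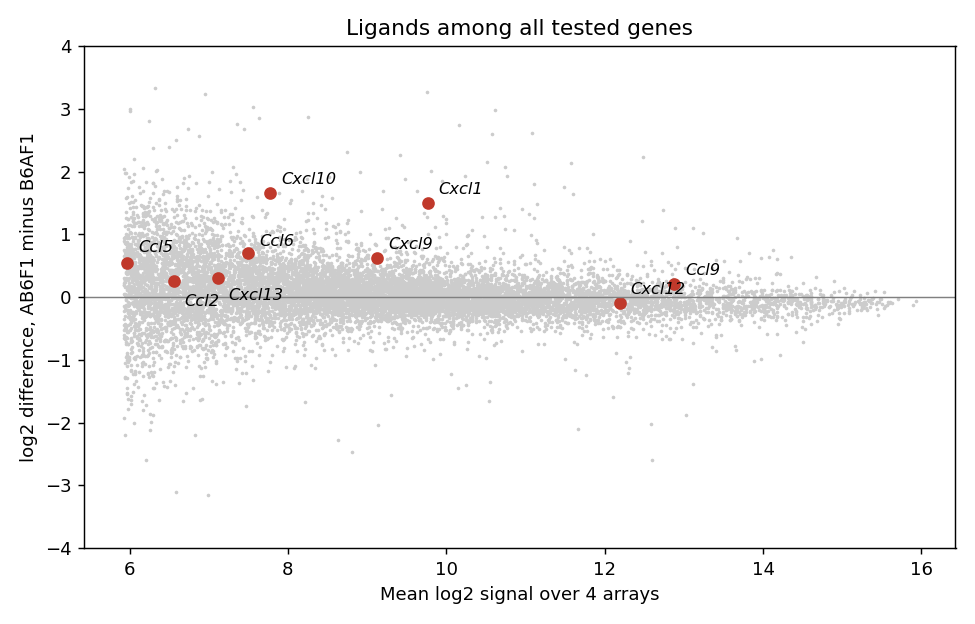
Mean log2 signal against log2 difference (AB6F1 minus B6AF1) for tested genes in grey and the 9 tested ligands in red, with 6 genes of larger difference outside the axis. Cxcl1 and Cxcl10 lie near the upper edge of the cloud at their signal, and Cxcl12 and Ccl9 near 0 among bright genes.

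Neutrophil attractants come first. Cxcl1 signals were 1292.8 and 1654.3 in AB6F1 against 499.3 and 534.9 in B6AF1. Both AB6F1 arrays were far above both B6AF1 arrays, and the mice within a cross lay within 1.28-fold of each other. The means were 1474 ± 256 (SD, n = 2) for AB6F1 and 517 ± 25.2 (SD, n = 2) for B6AF1, a 2.83-fold rise that is 1.50 ± 0.17 on the log2 scale (SE, limma adjusted p = 0.0299). Its p-value ranked 21 among the 11749 genes. The probe set read here, 1457644_s_at, has a suffix marking probes shared between transcripts.

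Other Cxcl1 probe sets pointed the same way. Probe set 1419209_at, whose name carries no suffix for shared probes, read 1321.8 and 1432.0 in AB6F1 against 271.9 and 510.1 in B6AF1, with a log2 difference of 1.89 ± 0.27 (SE). Probe set 1441855_x_at read 561.8 and 612.7 against 319.1 and 367.2, a log2 difference of 0.78 ± 0.19 (SE). All 3 probe sets separated the crosses, but the size of the change ran from 1.71-fold to 3.69-fold between them. With every probe set tested separately, only the brightest passed limma (adjusted p = 0.022, against 0.0721 and 0.424), where 0.0866% of all probe sets passed. Cxcl1 lost its call when probe sets of suffix _x_at and _s_at were left out and 1419209_at stood for it (limma adjusted p = 0.0884). It was lost as well when variances were moderated without the intensity trend (limma adjusted p = 0.365), without B6AF1 replicate 1 (0.396) and without B6AF1 replicate 2 (0.463), where log2 differences were 1.45 and 1.55. In those last fits the AB6F1 pair alone gives the residual spread, and the lone B6AF1 mouse is assumed to vary likewise. Over all 14 alternatives the adjusted p of Cxcl1 ran from 0.00439 to 0.463 and its log2 difference from 1.32 to 1.89.

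Cxcl2, the close relative of Cxcl1, was dim on every array. Its signals were 51.2 and 48.1 in AB6F1 against 8.7 and 54.9 in B6AF1. The B6AF1 arrays enclosed both AB6F1 arrays, and all 4 lay under 60.9, so the difference is given on the log2 scale alone. In the fit without the filter its log2 difference was 1.18 ± 1.06 (SE, limma adjusted p = 0.799), where 0.143% of all named genes passed, with a 95% interval from -1.30 to 3.66. Without B6AF1 replicate 1 it became -0.15. A change of Cxcl2 like that of Cxcl1 was thus not detectable at these signals and is not excluded by the interval.

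The interferon-induced ligands Cxcl9 and Cxcl10 had higher signals on both AB6F1 arrays without passing over all genes. For Cxcl10 the signals were 248.5 and 607.9 in AB6F1 against 113.3 and 135.2 in B6AF1. The AB6F1 mice differed by 2.45-fold from each other, and even the lower of them lay above both B6AF1 mice. Its log2 difference was 1.65 ± 0.43 (SE), with an unadjusted p of 0.00608 and an adjusted p of 0.311 in limma, the largest point estimate of the 9 tested ligands. Without AB6F1 replicate 1 it was 2.30, with a limma adjusted p of 0.0226, and without AB6F1 replicate 2 it was 1.01. These fits take the residual spread from the B6AF1 pair alone and assume that the lone AB6F1 mouse varies likewise, so the AB6F1 difference of 2.45-fold does not enter them. Over the 13 alternatives of Cxcl10 the adjusted p ran from 0.0226 to 0.875.

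Cxcl9 was read by a pair of probe sets. The brighter one, 1418652_at, gave 723.6 and 672.0 in AB6F1 against 529.3 and 383.9 in B6AF1, and 0.63 ± 0.20 as the log2 difference (SE), which limma gave an unadjusted p of 0.0176 and an adjusted p of 0.408. The other, 1456907_at, gave 142.6 and 167.1 against 76.6 and 116.1, or 0.71 ± 0.42 (SE). Both probe sets separated the crosses, by 1.55-fold and 1.64-fold, and neither passed. Cxcl11, the remaining Cxcr3 ligand of this cluster and one of the other ligands described below, read 337.5 and 315.8 against 265.9 and 196.5, at 0.51 ± 0.24 (log2, SE, limma adjusted p = 0.549).

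Among the homeostatic ligands, Cxcl12 was bright and close to equal between the crosses by its brightest probe set. Signals from 1448823_at were 4892.4 and 4167.8 in AB6F1 against 5029.9 and 4613.7 in B6AF1. The arrays overlapped, and the log2 difference was -0.09 ± 0.13 (SE, limma adjusted p = 0.849) with a 95% interval from -0.40 to 0.22. That interval leaves out any rise of the size seen for Cxcl1. Without AB6F1 replicate 2 the difference was 0.02.

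A second bright Cxcl12 probe set differed from it. Probe set 1417574_at read 3680.0 and 3537.7 in AB6F1 against 4356.0 and 5192.8 in B6AF1. These arrays did not overlap and AB6F1 was the lower cross, at -0.40 ± 0.14 (log2, SE), with a limma adjusted p of 0.619 over all probe sets and an unadjusted p of 0.0173. It was the only one of the 18 probe sets to separate that way, where 16% of all probe sets did. The last, 1439084_at, was dim on every array, between 10.9 and 54.7. The sources used here do not say which Cxcl12 transcripts each probe set reads.

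Cxcl13 had signals of 191.1 and 124.4 in AB6F1 against 114.5 and 136.1 in B6AF1 by probe set 1448859_at. One AB6F1 array stood above the others and the crosses overlapped, at 0.30 ± 0.36 (log2, SE, limma adjusted p = 0.816). The dimmer 1417851_at spread more, at 169.8 and 62.8 against 40.2 and 127.2. Without AB6F1 replicate 1 the Cxcl13 difference was -0.01.

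Of the CC ligands, none passed limma over all genes and none had an unadjusted p under 0.05. Ccl2 signals were 149.3 and 70.9 in AB6F1 against 78.8 and 94.4 in B6AF1. The AB6F1 mice lay on either side of both B6AF1 mice, and the log2 difference, 0.25 ± 0.50 (SE, limma adjusted p = 0.899), became -0.28 without AB6F1 replicate 1. Its 95% interval, from -0.94 to 1.45, reaches close to the Cxcl1 difference of 1.50 at its upper end.

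Ccl5 signals, 51.8 and 110.4 in AB6F1 against 32.3 and 83.6 in B6AF1, interleaved between the crosses. One array of each cross was under the filter signal, and the arrays of a cross differed by 2.13-fold in AB6F1 and 2.59-fold in B6AF1. Its log2 difference was 0.54 ± 0.72 (SE, limma adjusted p = 0.84), and it was -0.14 without B6AF1 replicate 1.

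Ccl6 and Ccl9 are neighbours on chromosome 11 and both bind Ccr1. Ccl6 read 282.5 and 188.4 in AB6F1 against 113.3 and 176.9 in B6AF1 with 1417266_at, so that the crosses separated by a narrow margin between 188.4 and 176.9. Its log2 difference was 0.70 ± 0.35 (SE, limma adjusted p = 0.577). The dimmer 1420249_s_at separated them as well, at 149.3 and 118.9 against 41.2 and 101.4, with 1.04 ± 0.57 (log2, SE).

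Ccl9 had signals of 9691.8 and 6807.2 in AB6F1 against 6459.6 and 7641.4 in B6AF1 with 1417936_at. The lower AB6F1 array fell between the B6AF1 arrays, and the log2 difference was 0.21 ± 0.19 (SE, limma adjusted p = 0.751), or -0.05 without AB6F1 replicate 1. With 1448898_at the signals were 3517.0 and 2841.2 against 2713.8 and 3178.5, at 0.11 ± 0.15 (log2, SE). The 95% interval of the brighter probe set, from -0.23 to 0.65, leaves out a rise of the size of Cxcl1.

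**Figure D3:**
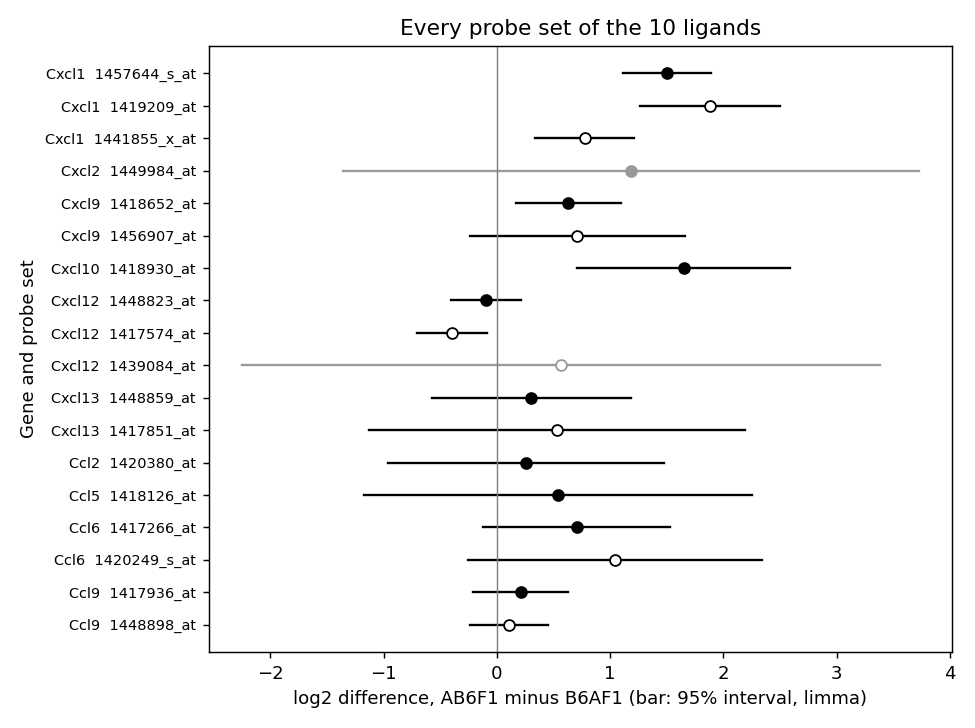
log2 difference (AB6F1 minus B6AF1) of all 18 probe sets, every probe set tested separately, with 95% intervals from limma and filled points for the probe set that stands for its ligand. Grey marks the 2 probe sets under 60.9 on all arrays, and the intervals of all 3 Cxcl1 probe sets lie above 0.

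Over all 18 probe sets, 16 had positive log2 differences, and 8 separated the crosses with AB6F1 above, where 20.9% of all probe sets did. An unadjusted limma p under 0.05 was seen for 6 of the 18 in either direction, where 7.13% of all probe sets had one. These included every Cxcl1 probe set and, with AB6F1 lower, the Cxcl12 probe set 1417574_at (log2 difference -0.40). Probe sets of 1 ligand share a gene and its RNA samples and are not independent. Leaving out 1 array at a time kept the sign of the log2 difference for Cxcl1, Cxcl9, Cxcl10 and Ccl6, and turned it for at least 1 array in Cxcl2, Cxcl12, Cxcl13, Ccl2, Ccl5 and Ccl9.

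**Figure D4:**
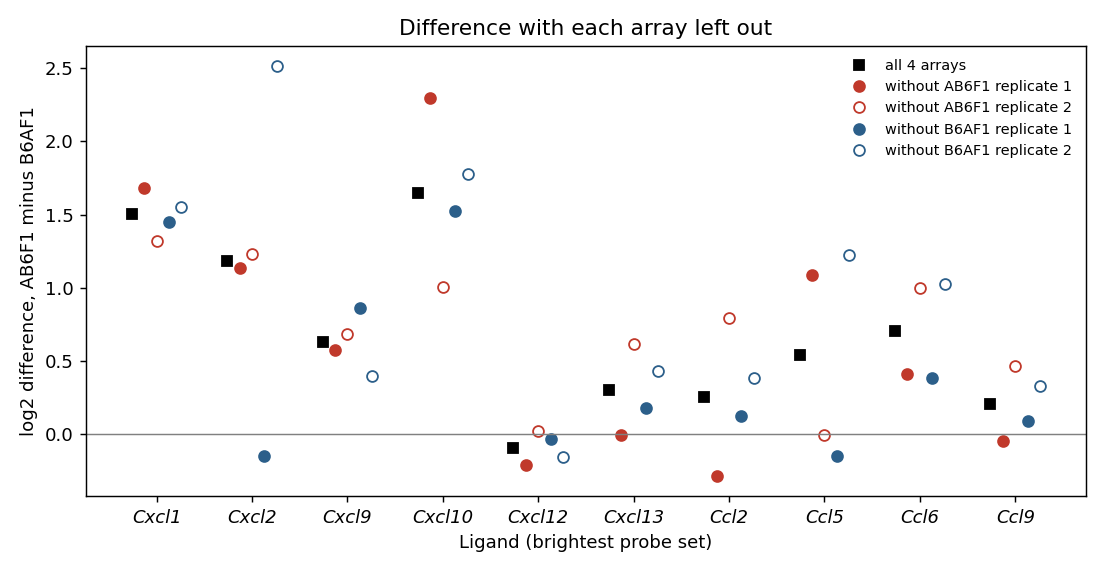
log2 difference (AB6F1 minus B6AF1) of each ligand over all 4 arrays (squares) and with 1 array left out (circles). All points of Cxcl1 lie between 1.32 and 1.68, those of Cxcl10 between 1.01 and 2.30, and points of the 6 ligands that change sign fall on both sides of 0.

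Receptors for these ligands were mostly dim in whole liver. Of 22 listed chemokine receptors, 8 were tested, 6 with positive and 2 with negative differences (5 and 3 after quantile normalization or median centring) and a median log2 difference of 0.65 against 0.02 over all genes. None passed limma, and 2 of the 8 had an unadjusted p under 0.05, both higher in AB6F1. For this and each list below, the share of all tested genes at an unadjusted p under 0.05 is 9.72%, and of those past the adjusted threshold 0.213%. Ccr2, which receives Ccl2 on monocytes, read 270.7 and 193.5 in AB6F1 against 139.3 and 75.6 in B6AF1, at 1.16 ± 0.40 (log2, SE, limma adjusted p = 0.431). Cx3cr1, the fractalkine receptor of monocytes and tissue macrophages, read 157.1 and 106.7 against 38.3 and 60.1, at 1.43 ± 0.52 (log2, SE, limma adjusted p = 0.451). Ccr6, a receptor of lymphocytes and dendritic cells, was at 1.21 ± 0.62 and Ackr1, a decoy that binds many ligands without signalling, at 1.22 ± 0.70 (log2, SE).

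The receptors paired with the described ligands are given next, named for that pairing after their values were seen. Cxcr2, the receptor of Cxcl1 and Cxcl2, was under 60.9 on 3 arrays, at 28.4 and 17.4 in AB6F1 against 22.1 and 64.9 in B6AF1. Cxcr3, which receives Cxcl9 and Cxcl10, was tested and overlapped, at 142.7 and 119.3 against 121.2 and 114.9 (log2 difference 0.14 ± 0.35, SE).

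For the homeostatic pair, Cxcr4 was under 60.9 on all arrays, between 16.3 and 60.6, and Cxcr5 read 61.2 and 27.3 against 6.6 and 21.2. Ackr3, the second Cxcl12 receptor, was at -0.17 ± 0.45 (log2, SE). Ccr1, the receptor of Ccl6, Ccl9 and Ccl5, read 120.1 and 32.1 in AB6F1 against 56.0 and 28.0 in B6AF1 and fell short of the filter.

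Other chemokine ligands were set beside the 10. Of 27 listed, 9 were tested, 7 with positive and 2 with negative log2 differences under each scaling, and their median was 0.60 against 0.02 over all genes. None passed limma, and 1 had an unadjusted p under 0.05. That one was Pf4, platelet factor 4, a neighbour of Cxcl1 on chromosome 5, with 467.6 and 418.5 in AB6F1 against 299.1 and 237.4 in B6AF1 (log2 difference 0.73 ± 0.21, SE, limma adjusted p = 0.371). Ppbp, the platelet basic protein beside it, was at 1.21 ± 0.52 and Cxcl16, the Cxcr6 ligand of macrophages and endothelium, at 0.83 ± 0.49 (log2, SE).

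Cxcl3, Cxcl5 and Cxcl15, CXC ligand genes from the same cluster as Cxcl1, had mean log2 signals under the filter and are named after their values were seen. Cxcl3, whose promoter window shares the 11-base word, read 37.6 and 19.1 in AB6F1 against 1.0 and 10.5 in B6AF1. Its crosses did not overlap, but all arrays lay under 60.9 and the B6AF1 arrays differed by 10.5-fold. The difference is therefore given on the log2 scale alone, from the fit without the filter. Besides Cxcl1, the tested genes with this word were Hpn, Il16 and Zfp84, named after their values were seen. Their log2 differences were -0.14, 0.27 and -0.26 (limma adjusted p from 0.767 to 0.911). Cxcl5, the next Cxcr2 ligand of the cluster, read 11.9 and 15.4 against 8.0 and 25.5. Cxcl15 separated the other way, at 4.8 and 55.3 in AB6F1 against 82.4 and 66.1 in B6AF1. Its AB6F1 arrays both lay under 60.9 and differed by 11.5-fold. In the fit without the filter, log2 differences were -2.18 ± 1.21 for Cxcl15 and 3.05 ± 1.41 for Cxcl3 (SE, limma adjusted p = 0.685 and 0.626).

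Inducers and regulators of these ligands did not pass either. Of 27 listed genes of interferon gamma and NF-kappaB signalling, 19 were tested, 14 with positive and 5 with negative differences (10 and 9 after median centring), with a median log2 difference of 0.37. None passed limma, and at an unadjusted p under 0.05 there were 4 higher and 1 lower. Irf1, a transcription factor induced by interferon gamma, read 1767.8 and 1520.6 in AB6F1 against 1140.6 and 1120.5 in B6AF1, at 0.54 ± 0.14 (log2, SE, limma adjusted p = 0.324). Tnfaip3, an NF-kappaB target that restrains the pathway, read 169.3 and 223.7 against 38.5 and 88.3, at 1.74 ± 0.51 (log2, SE, limma adjusted p = 0.367). Nfkbiz, an inducible nuclear cofactor of NF-kappaB, was at 0.64 ± 0.21 and Ifngr1, a chain of the interferon gamma receptor, at 0.47 ± 0.19 (log2, SE). Nfkb2 was at -1.14 ± 0.47 (log2, SE). It was the only lower tested gene at an unadjusted limma p under 0.05, named after its value was seen. Cytokine genes with means under the filter, named likewise, went both ways. Il6 and Ifng were lower on both AB6F1 arrays, at 5.9 and 7.3 against 24.4 and 50.6, and 4.0 and 4.7 against 8.8 and 6.4. Lta and Ltb were higher on both, at 22.4 and 27.0 against 11.4 and 3.3, and 58.4 and 64.9 against 19.9 and 26.1. Tnf and Il1a overlapped, with log2 differences of -0.98 and 1.90.

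Adhesion molecules act after chemokines in leukocyte recruitment. Of 12 listed, 8 were tested and all 8 had positive differences under each scaling, with a median log2 difference of 0.71. None passed limma, and 2 had an unadjusted p under 0.05. Icam1, an endothelial and hepatocyte ligand of leukocyte integrins, read 353.3 and 304.2 in AB6F1 against 180.6 and 159.4 in B6AF1, at 0.95 ± 0.24 (log2, SE, limma adjusted p = 0.299). Vcam1, the endothelial ligand of the integrin whose alpha chain is Itga4, read 347.1 and 243.2 against 128.7 and 200.3, at 0.86 ± 0.32 (log2, SE, limma adjusted p = 0.472). Selplg and Itgb2, a selectin ligand and an integrin chain of leukocytes, were at 0.77 ± 0.40 and 0.60 ± 0.31 (log2, SE).

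Markers of cells that make or answer these ligands were read on the same arrays. All 13 tested macrophage markers of 19 listed had positive log2 differences under each scaling, with a median log2 difference of 0.77. None passed limma, and 9 had an unadjusted p under 0.05. Lyz2, macrophage lysozyme, was at 1.28 ± 0.26, the lectin gene Lgals3 at 1.11 ± 0.27, C1qb at 1.12 ± 0.27 and C1qa at 1.01 ± 0.28, the last pair encoding chains of complement C1q (log2, SE, limma adjusted p from 0.199 to 0.338). Arrays of the crosses were apart for 9 of the 13, with AB6F1 above, where 22.5% of all tested genes separated that way. Clec4f, Vsig4, Cd5l and Cd14 overlapped, at log2 differences of 0.29, 0.48, 0.43 and 0.91, and are named after their values were seen. The summed signal of the 17 markers with a probe set was 22410 and 13850 in AB6F1 against 9280 and 12590 in B6AF1. Of the markers whose mean was under the filter, named after their values were seen, the Kupffer cell gene Timd4 was lower on both AB6F1 arrays, at 41.5 and 34.0 against 66.2 and 115.9, and the integrin chain Itgam overlapped, at 76.9 and 19.0 against 47.0 and 35.1. Their part in the chemokine differences was not tested.

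Neutrophil markers had 6 tested of 13 listed, 4 with positive and 2 with negative log2 differences under each scaling, a median log2 difference of 0.85 and none past limma (2 at an unadjusted p under 0.05). S100a8, a calprotectin subunit, read 601.9 and 120.7 in AB6F1 against 76.8 and 23.0 in B6AF1. S100a9, the other subunit, read 404.8 and 97.9 against 69.8 and 40.6. For both genes AB6F1 replicate 1 stood far above AB6F1 replicate 2. Csf3r, the receptor of the granulocyte growth factor, was at 1.28 ± 0.67 and Elane, neutrophil elastase, at 0.42 ± 0.50 (log2, SE). The remaining tested markers, the granule genes Mpo and Ngp, were at -0.28 ± 0.43 and -0.11 ± 0.43 (log2, SE), named after their values were seen. Camp and Mmp8, further granule genes with means under the filter and named likewise, were also lower in the mean of log2 signals, at -1.14 and -1.16, with overlapping arrays. Summed neutrophil signal overlapped, at 1800 and 816.5 against 943.4 and 536.1, and no marker of this list was listed at 0. The part of these markers in the chemokine differences was not tested.

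Stellate cell and fibroblast markers included the only list genes besides Cxcl1 to pass: Col3a1 and Col1a2, fibrillar collagens, at 1.81 ± 0.16 and 1.37 ± 0.17 (log2, SE, limma adjusted p = 0.00931 and 0.0402). Of the 13 tested, 10 had positive differences (9 after median centring), 8 of them with an unadjusted p under 0.05, and the median log2 difference was 0.73. Vim, an intermediate filament of mesenchymal cells, was at 1.17 ± 0.23, and Lum, a matrix proteoglycan, at 0.85 ± 0.18 (log2, SE). The 3 negative genes were Des at -0.22 ± 0.72, Hgf at -0.04 ± 0.35 and Rgs5 at -0.01 ± 0.17 (log2, SE). The bright Dcn was at 0.03 ± 0.17 (log2, SE), and these genes are named after their values were seen. Summed signal of the list was 17890 and 22170 in AB6F1 against 14270 and 13450 in B6AF1. Stellate cells are among the known sources of Cxcl1, Cxcl12 and Ccl2, and the part of their markers in these ligands was not tested.

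Lymphoid lists had medians nearer 0. T and NK cell markers had 4 tested of 16, 3 positive and 1 negative (2 and 2 after median centring), with a median log2 difference of 0.12 and none past limma or at an unadjusted p under 0.05. Cd3e, a T cell receptor chain, was at 0.15 ± 0.49, the granzyme Gzma at 0.40 ± 0.65, the cytokine receptor chain Il2rb at 0.08 ± 0.48 and the coreceptor Cd8a at -1.04 ± 0.69 (log2, SE). B and plasma cell markers had 7 tested of 12, 5 positive and 2 negative, with a median log2 difference of 0.26 and none past limma or at an unadjusted p under 0.05. Cd22 and Cd79b, B cell surface proteins, were at 0.92 ± 0.54 and 0.54 ± 0.57, and Mzb1 and Jchain, plasma cell genes, at -0.31 ± 0.33 and 0.25 ± 0.28 (log2, SE).

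Follicular stroma and lymphoid tissue markers, the usual setting of Cxcl13, had 3 tested of 9, with a median log2 difference of 0.15 and none past limma or at an unadjusted p under 0.05. Pdpn, a stromal mucin, was at 0.58 ± 0.36, the venular addressin Madcam1 at 0.15 ± 0.49 and the lymphotoxin receptor Ltbr at 0.08 ± 0.12 (log2, SE).

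Endothelial markers had 11 tested of 13, 6 positive and 5 negative, with a median log2 difference of 0.13 (-0.01 after median centring), none past limma and 2 at an unadjusted p under 0.05. Lyve1, a hyaluronan receptor of sinusoidal endothelium, was at 1.18 ± 0.39, and Cdh5, the endothelial cadherin, at 0.69 ± 0.23 (log2, SE). The scavenger receptor Stab1 was at 0.38 ± 0.29 and Kdr, a receptor of vascular growth factor, at 0.28 ± 0.23 (log2, SE). The 5 negative ones, named after their values were seen, were Tek, Tie1, Clec4g, Eng and Fcgr2b, between -0.21 and -0.0046. Platelet markers had 4 tested of 6, with a median log2 difference of 0.65, none past limma and Pf4 alone at an unadjusted p under 0.05. Pf4 and Ppbp are also counted among the other chemokine ligands above, so these lists are not independent. Summed platelet signal was 1038 and 921.4 in AB6F1 against 706 and 614.1 in B6AF1, Itga2b, a platelet integrin chain, was at 0.58 ± 0.24, and Gp1bb at -0.35 ± 0.48 (log2, SE).

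Hepatocyte markers were on the other side of 0. All 13 tested had negative differences (10 of 13 after quantile normalization), with a median log2 difference of -0.11, none past limma and Cps1 alone at an unadjusted p under 0.05. Cps1, the first enzyme of the urea cycle, was at -0.33 ± 0.12, Pck1, a gluconeogenic enzyme, at -0.19 ± 0.12, the carrier Ttr at -0.19 ± 0.13 and Alb at -0.16 ± 0.13 (log2, SE).

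**Figure D5:**
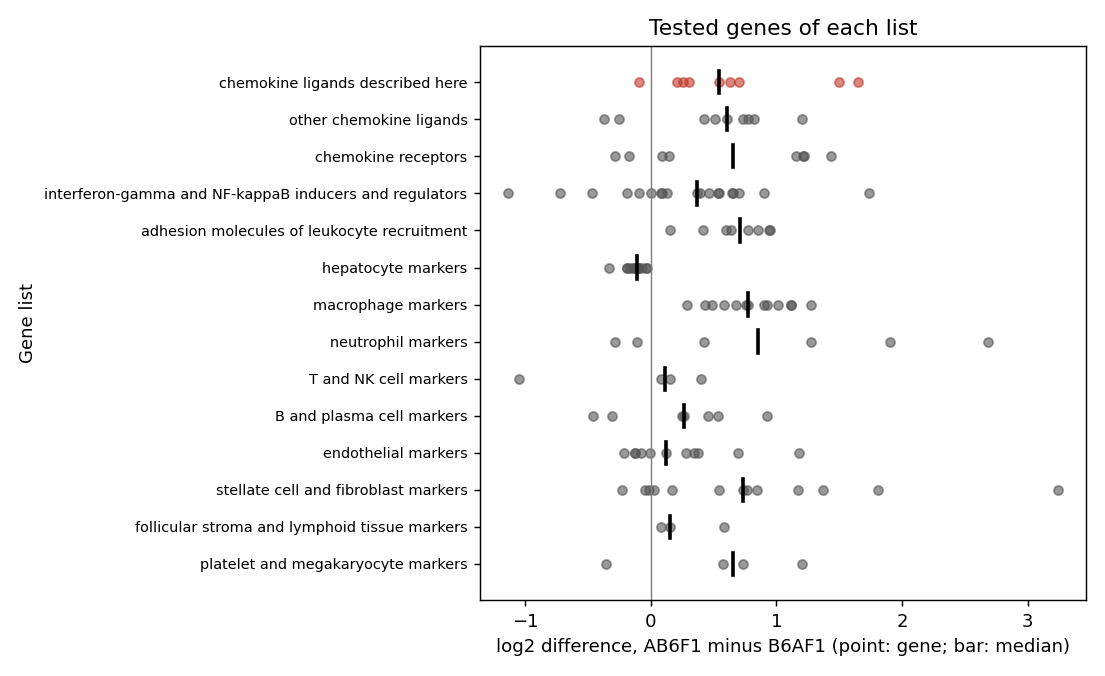
log2 difference (AB6F1 minus B6AF1) of the tested genes of each list, a point a gene, with a bar at the list's median. The ligands have a median of 0.54 with Cxcl12 left of 0, the macrophage, adhesion, stellate and neutrophil lists have medians from 0.71 to 0.85, and the hepatocyte markers lie just left of 0 at -0.11.

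The genes whose pattern over the 4 arrays was closest to Cxcl1 were Mthfd1l, Tnc and Hao2. Likeness was the root mean square distance of log2 signal, each gene centred on its mean, and was 0.05, 0.09 and 0.10 for the 3, over 11748 genes compared. Mthfd1l, a mitochondrial folate enzyme, read 233.8 and 296.5 in AB6F1 against 92.1 and 104.7 in B6AF1. Tnc, the matrix protein tenascin C, read 128.9 and 142.8 against 44.0 and 52.7, and Hao2, a peroxisomal oxidase, read 5176.3 and 5788.6 against 1663.2 and 1850.9. All 3 follow the same step between crosses, and with 4 arrays many genes come close to any such pattern.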

How the data were processed

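Trizol RNA from whole liver slices of 4 mice was hybridised as biotin-labelled cRNA to Affymetrix arrays, per the labels' protocols. The deposited values are the linear intensity of each probe set, made with MAS5, of unnamed version, per the submitters' processing notes. The trimmed mean of 500 was read from the values. Probe sets were named through the platform annotation (34945 with 1 symbol, 932 with several, 9160 with none, beside 64 controls), with symbols updated through gene identifiers and RefSeq of GRCm38.p6 for 34741. Log2 signals without a pseudocount were fitted by limma 3.58.1 in R 4.3.3 (lmFit, eBayes with an intensity trend) over 11749 genes with a mean log2 signal at or above the median of all probe sets, two-sided, with Benjamini-Hochberg adjustment at 0.05. Folds are powers of the log2 difference, and means ± SD are arithmetic. SE and 95% intervals are limma's. Other probe sets come from a fit of all probe sets and Cxcl2 from one without the filter. The fit was also run on simulated data, with variances drawn from the distribution limma fitted here and independent normal noise. Those data follow limma's own assumptions, so the run does not measure how the fit performs on these arrays.

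The ligands, lists and tests were chosen with earlier results of these data known, and no list-wide test was made. Some genes, such as Pf4, Ppbp, Ltbr and Madcam1, stand in several lists. Besides the ligands, the genes named were up to 4 of smallest limma p per list, any that passed, the 3 most like the ligand of smallest p, and Alb. Exceptions are marked. Samples were grouped by the cross in their titles. The labels call the mice biological replicates. Alternatives covered scaling, a pseudocount of 16, filters, probe set choice, variance moderation, a replicate block and each array left out. Scanner files were not used here.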

Additional observations from a re-analysis of the deposited data

How the results depend on the processing

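Over 134 refits of single ligands, 122 kept the direction and the side of the threshold, and 7 reversed the direction. Refits that changed only the filter, the variance moderation or the replicate block return the same log2 difference, so direction could not change there. Ligands other than Cxcl1 began far from the threshold, at limma adjusted p from 0.311 to 0.899. The count is therefore no measure of stability. The number of genes called, 25, became 49 after median centring (28 higher and 21 lower, in place of 16 and 9), 39 with every probe set tested separately, 62 with the replicate block and 0 without the intensity trend (1044 at an unadjusted p under 0.05). It ran from 1 to 242 when an array was left out: 79 without AB6F1 replicate 1, 242 without AB6F1 replicate 2, and 1 without either B6AF1 array. With an array left out, the lone mouse is assumed to vary like the cross that kept its pair, which alone gives the residual spread. The number of ligands called, 1, was 0 with _x_at and _s_at probe sets dropped and 0 without the trend, and ran from 0 to 2 when an array was left out. It stayed at 1 with the replicate block, although same-numbered mice share only a number: their deviations from the cross means correlated at -0.0272 over genes. Median centring moved the median of all genes by -0.14 (log2), and 8 of 9 ligands stayed above 0 with a median log2 difference of 0.40. Sign changes came from leaving out an array: ranges were -0.15 to 2.51 for Cxcl2, -0.21 to 0.022 for Cxcl12, -0.0050 to 0.61 for Cxcl13, -0.28 to 0.79 for Ccl2, -0.14 to 1.23 for Ccl5 and -0.046 to 0.46 for Ccl9. The filter at the 75th percentile left 4 ligands. The causes were not tested. Signals under 60.9 limit what can be said of Cxcl2, and of Ccl5 on an array of each cross.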
